A study of Mus musculus with 49 samples.

Results

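Insulin, IGF1 and leptin signalling in the hippocampus was described through 10 genes: the ligand gene Igf1, the receptor genes Insr, Igf1r and Lepr, the adaptor genes Irs1 and Irs2, the kinase genes Pik3ca and Akt2, and the downstream genes Foxo1 and Gsk3b. The genes were chosen by name, with earlier results of these data known. The rows of the expression table whose identifiers carry those names were taken, 10 of 42521 rows. Each gene stood on exactly 1 row, and all 10 passed the filter of a mean of at least 0.5 FPKM (fragment counts scaled to transcript length and library size) that left 16029 rows for testing.

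Insulin and IGF1 bind related receptor tyrosine kinases, which phosphorylate the IRS adaptor proteins. The adaptors recruit PI3-kinase, whose lipid product activates the AKT kinases, and AKT in turn inhibits the transcription factor FOXO1 and the kinase GSK3B. The leptin receptor is a cytokine receptor that signals mainly through JAK2 and STAT3, and it is known for its part in appetite control by the hypothalamus. In the hippocampus, insulin and IGF1 signalling is known for its effects on synapses and on the birth of new neurons.

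RNA was sequenced from the hippocampus of 49 C57BLKS/J mice at 3 months of age, each mouse giving 1 library. The 6 groups were HFD-F, CD-F, FFD-C, FD-C and CD-C with 8 libraries each, and HFD-C with 9. The labels give the codes without their meaning, and the title speaks of offspring of obese mothers and of a fibre-rich diet, so the opening of each code, up to the hyphen, was taken for the mother's diet and the final letter for that of her offspring. Sample titles also carry a mark, XX or XY, with 4 XX libraries in every group, and a prefix that may stand for a litter or a dam, which no label says. Of the 20 prefixes, 3 contain both HFD-F and HFD-C libraries, and none contains both CD-F and CD-C libraries, so that the comparison of CD-F with CD-C cannot be made within a prefix.

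Igf1 encodes insulin-like growth factor 1, Pik3ca the catalytic p110-alpha subunit of PI3-kinase, and Akt2 the AKT isoform best known for insulin-driven glucose uptake. These 3 were the members that limma called at an adjusted p under 0.05 in CD-F against CD-C, where 13.4% of all rows were called. None of the 3 was called there once each library's trend on GC content and transcript length was removed. The 250 bases before a RefSeq start of each of these genes (build GRCm38.p6) are shown as a description. The results below use the GC content of transcripts, and these windows enter no test. Capitals mark CG pairs. The Igf1 window is chr10:87860861-87861110 on the plus strand, the Pik3ca window chr3:32396815-32397064 on the plus strand, and the Akt2 window, the first of 4 annotated starts, chr7:27591302-27591551 on the plus strand.
Igf1: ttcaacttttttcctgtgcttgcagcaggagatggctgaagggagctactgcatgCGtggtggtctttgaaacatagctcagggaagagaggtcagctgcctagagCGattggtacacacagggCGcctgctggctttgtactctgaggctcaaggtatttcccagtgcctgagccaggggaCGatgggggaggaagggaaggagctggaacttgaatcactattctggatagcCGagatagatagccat
Pik3ca: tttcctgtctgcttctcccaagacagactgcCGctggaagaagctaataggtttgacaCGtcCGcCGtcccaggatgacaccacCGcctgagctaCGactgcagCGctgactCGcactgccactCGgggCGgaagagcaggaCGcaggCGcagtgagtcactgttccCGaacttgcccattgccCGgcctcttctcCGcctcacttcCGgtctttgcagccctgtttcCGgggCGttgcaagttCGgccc
Akt2: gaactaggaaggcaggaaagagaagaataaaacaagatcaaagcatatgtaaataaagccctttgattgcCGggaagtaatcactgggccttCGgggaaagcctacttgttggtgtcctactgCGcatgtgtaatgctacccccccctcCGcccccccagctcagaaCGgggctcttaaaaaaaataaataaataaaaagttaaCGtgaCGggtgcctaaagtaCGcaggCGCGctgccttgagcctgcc
The Igf1 window contained 52.8% G and C and 5 CG pairs, the Pik3ca window 61.6% and 19 pairs, and the Akt2 window 48.8% and 10 pairs, against medians of 52.4% and 6 pairs over 32851 promoters of the same length. The transcripts of the same genes were ordered otherwise. The longest annotated transcript had 38% G and C for Igf1, 41.2% for Pik3ca and 55.2% for Akt2, at percentiles 1.87, 8.79 and 77.9 of the rows tested. Start windows were on hand for 9 of the 10 members. The letters GTAAACA, a core that FOXO factors bind, were in none of the members' windows on either strand and in 3.17% of all promoters, and the letters TATAAA, searched on both strands, were on the minus strand of the Gsk3b window (as TTTATA on the plus strand, the strand of the gene) and on either strand of 12.4% of all promoters.

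In the GENCODE M21 annotation of GRCm38, Igf1 lies at chr10:87858265-87937042, Pik3ca at chr3:32397671-32468486 and Akt2 at chr7:27591552-27640826, all on the plus strand. The Igf1 window shown above thus lies inside the annotated gene, before an internal start. The Pik3ca and Akt2 windows end before the first base of their genes. The antisense gene Igf1os overlaps Igf1 and had a row of its own with a mean of 0.0167 FPKM, and the sources used here do not say whether the quantification used strand. The Irs2 row also names the predicted gene 3930402G23Rik, so its level cannot be divided between them. For 9 members the row came from the authors' assembly of transcripts, and for Igf1 it carried an annotated gene's identifier.

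Across the libraries the summed FPKM lay between 1220340 and 1340551. Markers of hippocampal neurons were present in every group, with the summed level of 5 dentate granule cell genes between 93.9 and 288 FPKM and that of 5 CA1 pyramidal cell genes between 210 and 607 FPKM. In CD-F against CD-C, limma called 1 of 5 dentate granule cell markers lower (Calb1, log2 difference -0.59, adjusted p = 0.00199). It called 1 of 5 astrocyte markers higher (Aldh1l1, 0.33, adjusted p = 0.0265) and 1 of 6 endothelial markers higher (Cdh5, 0.44, adjusted p = 0.0453). Over all rows tested, 8.88% were called lower and 4.54% higher. Not every astrocyte marker read higher, with Gja1 at 545 ± 110 FPKM in CD-F and 598 ± 63.3 FPKM in CD-C (SD, n = 8 each). The part of these markers in the members' differences was not tested. Liver transcripts stood out in 4 CD-C libraries (2, 5, 7 and 8), which had at least 24.3 FPKM of the albumin gene Alb. Libraries also differed in whether GC-rich transcripts read high or low. This GC lean is the Spearman correlation, over rows, between a library's deviation from the row medians and transcript GC content, and it was above 0 in 6 of 8 HFD-F, 6 of 8 CD-F, 3 of 8 FFD-C, 6 of 8 FD-C, 0 of 9 HFD-C and 0 of 8 CD-C libraries.

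On the FPKM scale the members spanned more than 2 orders of magnitude. The level of the Igf1 row, with its annotated identifier, may not compare directly with those of the 9 assembled rows. Among rows tested, the median of the mean level was 13.3 FPKM for assembled rows and 1.07 FPKM for annotated rows. Insr, the insulin receptor gene, had the highest level with a mean of 462 ± 104 FPKM (SD, n = 49), at percentile 97 of the rows tested. Gsk3b, the glycogen synthase kinase gene, followed with 374 ± 54.3 FPKM. Irs2 had 246 ± 47.7 FPKM and Foxo1 had 120 ± 26.0 FPKM. These 4 rows thus read high among the rows tested, with Foxo1, the lowest of them, at percentile 88.5. Igf1r, the IGF1 receptor gene, averaged 42.1 ± 10.2 FPKM, against 36.2 ± 5.97 FPKM for Irs1 and 28.2 ± 4.41 FPKM for Pik3ca. Akt2 had 13.7 ± 2.72 FPKM and Igf1 11.6 ± 2.81 FPKM, both near the middle of all rows, at percentiles 52.2 and 48.9. Lepr was the lowest, with 2.88 ± 2.76 FPKM at percentile 24, and had an SD nearly as large as its mean.

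**Figure D1:**
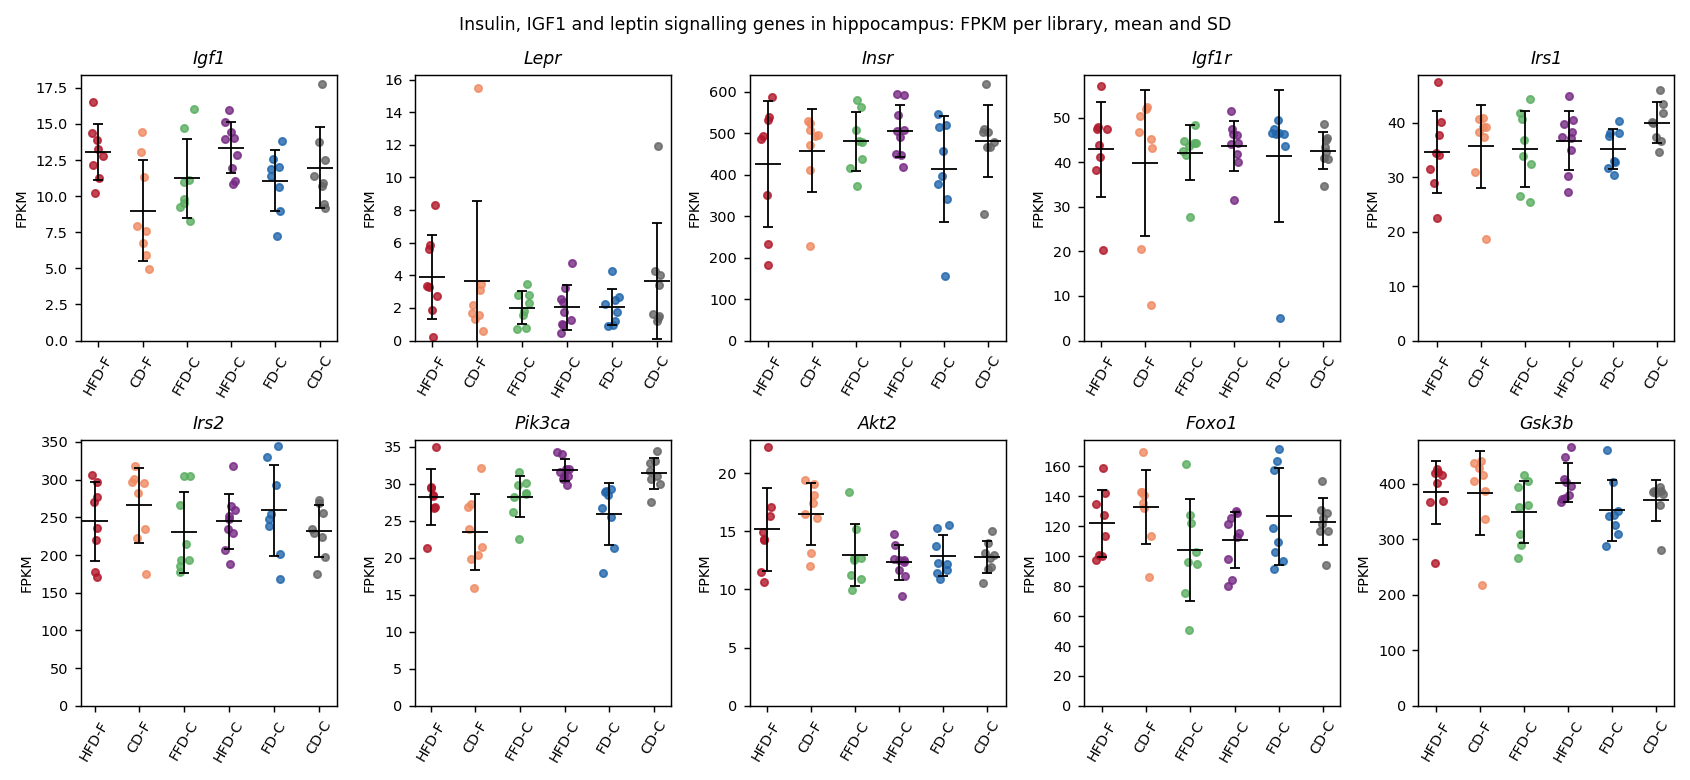
FPKM of each of the 10 genes (vertical axes, linear from 0) in every library of the 6 groups (HFD-F, CD-F, FFD-C, HFD-C, FD-C and CD-C from left to right). Points are libraries, black lines and bars the group mean and SD, with the lower SD bar of Lepr cut at 0. The CD-F points of Pik3ca lie mostly below the CD-C points, those of Akt2 mostly above, and single low libraries stand apart for Igf1r, Insr and Gsk3b.

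In CD-F mice, 3 of the 10 genes differed from CD-C mice. Pik3ca was lower (0.737-fold), Igf1 was lower (0.731-fold) and Akt2 was higher (1.27-fold). The calls came from limma on log2(FPKM + 0.5) over all rows with Benjamini-Hochberg adjustment and a threshold of 0.05, and the same test called 13.4% of all rows in this comparison, 4.54% higher and 8.88% lower. At an unadjusted p under 0.05, 3 members and 26.8% of all rows passed. The median log2 difference was -0.13 over the members and 0.02 over all rows tested. In bulk tissue, fewer cells of a type and less RNA per cell cannot be told apart for any of these differences.

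Igf1 read 4.93, 7.74 and 14.4 FPKM in CD-F mice (lowest, median and highest), against 9.20, 11.2 and 17.8 FPKM in CD-C mice. The groups overlapped, and 5 of 8 CD-F libraries lay below the lowest CD-C library. Group means were 8.98 ± 3.50 FPKM in CD-F and 11.97 ± 2.78 FPKM in CD-C (SD, n = 8 each), a log2 difference of -0.45 (SE 0.151, limma adjusted p = 0.0386, 95% interval -0.76 to -0.15). This call was near the threshold. It was not made when CD-C library 1, 2, 4 or 6 or CD-F library 1, 2, 4, 7 or 8 was left out, with log2 differences between -0.46 and -0.36 and limma adjusted p between 0.0542 and 0.1. The order of group means was HFD-C, HFD-F, CD-C, FFD-C, FD-C and CD-F, running between 13.4 FPKM in HFD-C and 8.98 FPKM in CD-F, and each neighbour in that order differed by less than the larger of their SDs.

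The receptor genes had no call. Insr read 227, 494 and 530 FPKM in CD-F libraries, against 305, 491 and 619 FPKM in CD-C libraries. The medians were nearly equal, and 1 CD-F library lay below all of CD-C. The log2 difference of Insr was -0.09 (95% interval -0.51 to 0.32, limma adjusted p = 0.821). Igf1r read 7.98, 46.0 and 52.4 FPKM in CD-F, against 34.7, 42.8 and 48.6 FPKM in CD-C. Most CD-F values of Igf1r were as high as in CD-C, with 3 above the highest CD-C library, while libraries 1 and 8 were far below at 7.98 and 20.5 FPKM. Its log2 difference was -0.28 (95% interval -0.91 to 0.34, limma adjusted p = 0.605), an interval that allows differences larger than those called for Pik3ca and Igf1. Lepr read 0.604, 1.94 and 15.5 FPKM in CD-F, against 1.23, 2.51 and 11.9 FPKM in CD-C, and each group held 1 library far above its others. The log2 difference of Lepr was -0.17 (95% interval -1.06 to 0.73, limma adjusted p = 0.854).

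Neither adaptor gene was called. Irs1 read 18.6, 38.8 and 40.8 FPKM in CD-F, against 34.6, 40.0 and 46.0 FPKM in CD-C, with a log2 difference of -0.20 (95% interval -0.46 to 0.07, limma adjusted p = 0.357). CD-F library 8 had that lowest value, and without it the log2 difference of Irs1 was -0.07 (limma adjusted p = 0.752). Irs2 read 175, 289 and 319 FPKM in CD-F, against 175, 232 and 273 FPKM in CD-C, with a log2 difference of 0.18 (95% interval -0.11 to 0.47, limma adjusted p = 0.441). The ranges of both genes overlapped between the groups.

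Of the kinase genes, Pik3ca read 15.9, 22.6 and 32.1 FPKM in CD-F, against 27.5, 31.4 and 34.4 FPKM in CD-C. Only CD-F library 5 lay inside the CD-C range, and the other 7 were below the lowest CD-C library. Pik3ca averaged 23.4 ± 5.16 FPKM in CD-F and 31.4 ± 2.13 FPKM in CD-C (SD, n = 8 each), a log2 difference of -0.44 (SE 0.0972, limma adjusted p = 0.00175, 95% interval -0.64 to -0.24). It was called with any 1 of the 16 libraries left out, at log2 differences between -0.50 and -0.37. It was not called after each library's trend on GC content and transcript length was removed, at -0.21 (limma adjusted p = 0.0655). By group mean, the order of Pik3ca was HFD-C (31.8 FPKM), CD-C (31.4), HFD-F (28.2), FFD-C (28.2), FD-C (25.9) and CD-F (23.4). The pair at the top and the pair HFD-F and FFD-C were nearly equal, the step between CD-C and HFD-F exceeded the SD of CD-C, and every other step was smaller than both SDs on its sides.

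Akt2 read 11.97, 16.9 and 19.4 FPKM in CD-F, against 10.5, 12.9 and 15.0 FPKM in CD-C. Here 6 of 8 CD-F libraries exceeded the highest CD-C library. The means were 16.4 ± 2.67 FPKM in CD-F and 12.8 ± 1.39 FPKM in CD-C (SD, n = 8 each), a log2 difference of 0.34 (SE 0.116, limma adjusted p = 0.0414, 95% interval 0.11 to 0.58). The Akt2 call was lost in 12 of 16 fits that left out 1 library: each CD-C library other than 3 and 7, and each CD-F library other than 5 and 6, at log2 differences between 0.31 and 0.35 and limma adjusted p between 0.0519 and 0.0938. Without the 4 CD-C libraries that held liver transcripts the log2 difference was 0.32 (limma adjusted p = 0.187). The 5 liver marker genes were lower in CD-F than in CD-C, with summed levels of 0 to 0.945 FPKM in CD-F and 0 to 155 FPKM in CD-C. The log2 differences without those 4 libraries were -0.50 for Pik3ca (limma adjusted p = 0.0102) and -0.66 for Igf1 (limma adjusted p = 0.0215).

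Both downstream genes missed the threshold. Foxo1 read 85.8, 138 and 170 FPKM in CD-F, against 94.3, 123 and 150 FPKM in CD-C, with a log2 difference of 0.10 (95% interval -0.23 to 0.42, limma adjusted p = 0.754). Gsk3b read 217, 410 and 440 FPKM in CD-F, against 280, 383 and 393 FPKM in CD-C, with a log2 difference of 0.03 (95% interval -0.20 to 0.26, limma adjusted p = 0.911). CD-F library 8 gave the lowest value of both genes in its group.

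**Figure D2:**
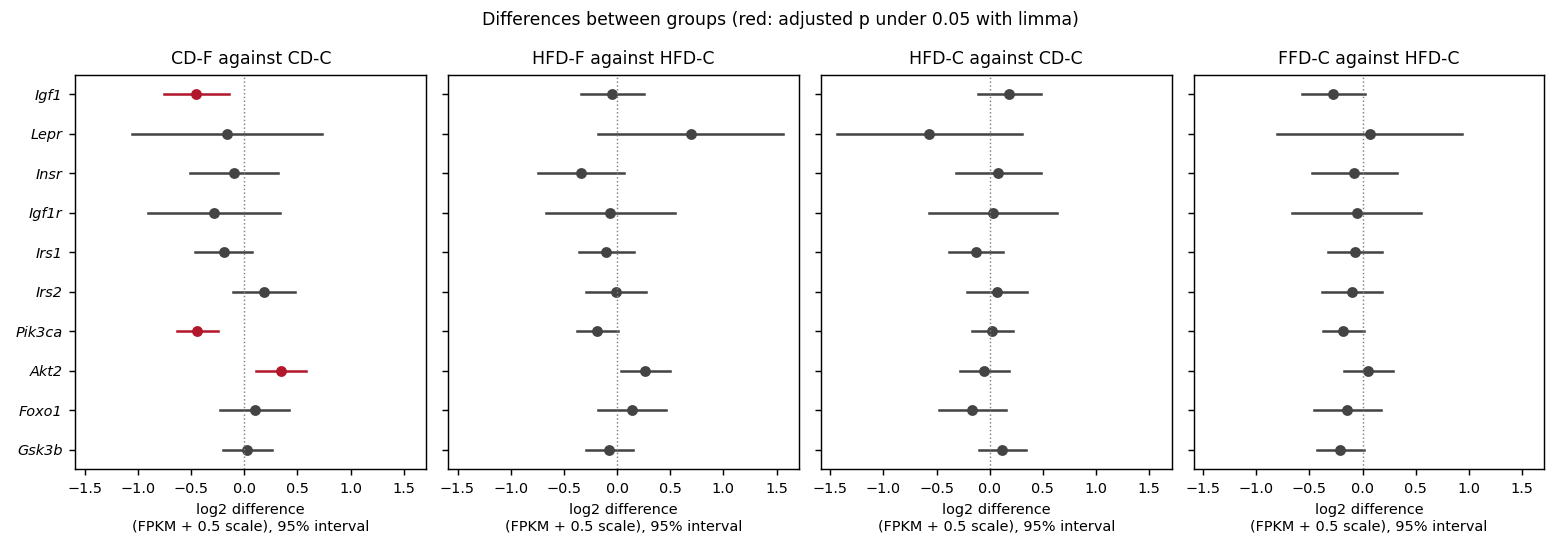
Log2 differences of the 10 genes in 4 comparisons (panels: CD-F minus CD-C, HFD-F minus HFD-C, HFD-C minus CD-C and FFD-C minus HFD-C), from limma on log2(FPKM + 0.5). Points are estimates, bars 95% intervals, and red marks an adjusted p under 0.05. The red points are Igf1, Pik3ca and Akt2 in the first panel, at -0.45, -0.44 and 0.34, and the intervals of Lepr are the widest in all 4 panels.

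The same change of offspring code with the dam code HFD, HFD-F against HFD-C, gave no call among the members by limma, where 1.67% of all rows were called. At an unadjusted p under 0.05, 1 of 10 members and 16.6% of all rows passed. That member was Akt2, which read 10.7, 14.6 and 22.2 FPKM in HFD-F, against 9.45, 12.5 and 14.8 FPKM in HFD-C. Its log2 difference was 0.27 (SE 0.113, limma adjusted p = 0.221), and 4 of 8 HFD-F libraries were above the highest HFD-C library. Pik3ca read 21.3, 28.4 and 35.0 FPKM in HFD-F, against 29.8, 31.5 and 34.3 FPKM in HFD-C. The HFD-C libraries were tightly grouped, with 7 of 8 HFD-F libraries below them and 1 above, and the log2 difference was -0.18 (95% interval -0.38 to 0.01, limma adjusted p = 0.321). Igf1 averaged 13.04 ± 1.95 FPKM in HFD-F (n = 8) and 13.4 ± 1.79 FPKM in HFD-C (n = 9, SD), a log2 difference of -0.05 (95% interval -0.34 to 0.25, limma adjusted p = 0.917). Insr reached down to 181 FPKM in HFD-F, against a lowest value of 420 FPKM in HFD-C, and 3 HFD-F libraries lay below the HFD-C range. Its log2 difference was -0.34 (95% interval -0.74 to 0.06, limma adjusted p = 0.407).

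The difference between these changes was itself tested as an interaction, HFD-F minus HFD-C less CD-F minus CD-C. The interaction was past the threshold for 0 of 10 members by limma, and 0% of all rows were called. At an unadjusted p under 0.05, 0 members and 2.75% of all rows passed. Its estimates were 0.41 for Igf1, 0.26 for Pik3ca and -0.08 for Akt2 on the log2 scale. The calls in CD-F against CD-C, absent in HFD-F against HFD-C, were therefore not shown to depend on the dam code. The 3 prefixes shared by HFD-F and HFD-C held 1 HFD-C library each. Within them Pik3ca differed by 0.10, -0.21 and -0.26, Akt2 by -0.20, 0.52 and 0.05, and Igf1 by -0.19, -0.40 and -0.12. These values are the mean log2(FPKM + 0.5) of HFD-F minus that of HFD-C, with no test. In each of these prefixes every HFD-F library carried the opposite mark, XX or XY, to the HFD-C library. Offspring code and mark therefore cannot be told apart within them.

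The dam codes were compared among offspring coded C, and the comparisons that share CD-C or HFD-C libraries share their chance values. HFD-C against CD-C had 0 of 10 members called by limma, with 0% of all rows called, and 0 members at an unadjusted p under 0.05, which 2.36% of rows met. Its member estimates lay between -0.57 for Lepr (95% interval -1.44 to 0.30) and 0.18 for Igf1 (-0.12 to 0.48). FD-C against CD-C had no member called by limma, with 0.2% of all rows called, and 1 member at an unadjusted p under 0.05, which 9.54% of rows met. That was Pik3ca, at 25.9 ± 4.16 FPKM in FD-C and 31.4 ± 2.13 FPKM in CD-C (SD, n = 8 each), a log2 difference of -0.29 (SE 0.0972, limma adjusted p = 0.224). FFD-C against CD-C, where limma called 0.00624% of rows, had 0 members past the adjusted threshold and 0 at an unadjusted p under 0.05, which 3.29% of rows met. The Foxo1 values of FFD-C ran between 50.4 and 162 FPKM around a median of 99.6 FPKM, against 94.3 to 150 FPKM and a median of 123 FPKM in CD-C, and the log2 difference was -0.31 (95% interval -0.63 to 0.02, limma adjusted p = 0.999).

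FFD-C against HFD-C likewise had 0 of 10 members called by limma, with 0% of rows called, and 0 at an unadjusted p under 0.05, which 5.96% of rows met. Its members nearest to the threshold were Pik3ca at -0.18 (95% interval -0.37 to 0.01), Gsk3b at -0.21 (-0.43 to 0.02) and Igf1 at -0.27 (-0.57 to 0.02), all on the log2 scale with limma adjusted p = 0.761. In FFD-C against FD-C limma called 0 members and 0.00624% of rows, and 0 members met an unadjusted p under 0.05, as 5.68% of rows did. HFD-F against CD-F, with 0% of rows called, had no member past the adjusted threshold by limma and 2 at an unadjusted p under 0.05, which 8.27% of rows met. These were Igf1, 0.59 higher on the log2 scale (limma adjusted p = 0.482), and Pik3ca, 0.28 higher (limma adjusted p = 0.507). All 8 HFD-F values of Igf1 were above the CD-F mean. HFD-F against CD-C had 2.7% of rows called by limma and 0 members, and 0 members had an unadjusted p under 0.05, which 16.8% of rows met.

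A test for any difference among the 6 groups, which singles out no pair, called 12% of all rows and 2 of the 10 members by limma. These were Pik3ca (adjusted p = 0.00282) and Igf1 (adjusted p = 0.0215), and Akt2 had an adjusted p of 0.0583. Igf1 was no longer called without CD-F library 1, 4, 7 or 8 (limma adjusted p between 0.0557 and 0.0713). Akt2 was called without HFD-F library 2 or 6, CD-F library 5 or 6, FFD-C library 1 or 7, HFD-C library 5, or FD-C library 3 or 7 (limma adjusted p between 0.0186 and 0.0474).

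Libraries marked XX against those marked XY had no member called by limma, where 0.112% of all rows were called, and 1 at an unadjusted p under 0.05, which 8.25% of rows met. Igf1 was 0.20 higher in XX on the log2 scale (95% interval 0.03 to 0.37, limma adjusted p = 0.563). In CD-F its means were 10.5 ± 3.85 FPKM in XX and 7.51 ± 2.82 FPKM in XY, and in CD-C 12.3 ± 3.75 FPKM in XX and 11.6 ± 1.90 FPKM in XY (SD, n = 4 each).

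The 3 called genes moved with the GC lean of the libraries. Over 49 libraries Pik3ca had Pearson r = -0.831 and Spearman rho = -0.834 with the lean, Igf1 had r = -0.636 and rho = -0.456, and Akt2 had r = 0.627 and rho = 0.563. Pik3ca and Igf1 have AT-rich transcripts and read lower where GC-rich transcripts read high, and Akt2, with a GC-richer transcript, read higher there. Among the other members, r with the lean lay between -0.273 for Insr and 0.252 for Foxo1. Lepr, with 41.6% G and C in its transcript, had r = -0.0527, and Irs2, with 56.6%, had r = 0.0896. The permutations shuffled all 49 libraries without regard to group. Over 30 relations computed, the permutation adjusted p of the Pearson correlations was 6e-05 for each of the 3 called genes. It came from an unadjusted p of 1e-05, the smallest that 100000 permutations can give. For the rank correlations of Pik3ca, Igf1 and Akt2 the permutation adjusted p was 0.00015, 0.0063 and 0.00015. Leaving out the pair of libraries farthest from the median lean gave r of -0.802 for Pik3ca, -0.562 for Igf1 and 0.61 for Akt2. Within groups, r was -0.706, -0.548 and 0.573 in the same order, with no p computed.

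The lean differed between the groups that were compared. In CD-F it ran between -0.141 and 0.556 with a median of 0.342, against -0.328 to -0.0183 with a median of -0.117 in CD-C. CD-F libraries 5 and 6 were those of the group with a lean below 0. They had the highest Pik3ca in CD-F, 32.1 and 27.2 FPKM, and the lowest Akt2, 13.1 and 11.97 FPKM. The order was not strict. The highest Akt2 in CD-F, 19.4 FPKM, was in library 3 with a lean of 0.0876, while library 1, with a lean of 0.556, had 16.1 FPKM. Igf1 was 14.4 and 11.3 FPKM in libraries 5 and 6, and 13.1 FPKM in library 3. Across 14875 rows with a known transcript, the log2 difference of CD-F and CD-C had a Spearman correlation of 0.515 with GC content.

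With each library's trend on GC content and transcript length removed, 1 of 10 members was called in CD-F against CD-C, where 6.72% of rows were called. Pik3ca then had a log2 difference of -0.21 (SE 0.0719, limma adjusted p = 0.0655), Igf1 -0.09 (SE 0.113, adjusted p = 0.722) and Akt2 0.20 (SE 0.107, adjusted p = 0.293). The member called was Irs1, at -0.29 (SE 0.0814, limma adjusted p = 0.0197), which was also called in HFD-F against CD-C at -0.32 (limma adjusted p = 0.0301), where 1.67% of rows were called after the removal. After the removal no member was called in HFD-F against HFD-C, with 0.35% of rows called, or in the test for any difference among the 6 groups, with 6.26% of rows called. Over the 13 alternative settings that keep every CD-F library, the limma adjusted p in CD-F against CD-C lay between 0.0197 and 0.581 for Irs1 and between 0.00135 and 0.0655 for Pik3ca, and over the fits that left out 1 library between 0.288 and 0.752 for Irs1 and between 0.000257 and 0.0063 for Pik3ca. With the trend removed and CD-F library 8 left out together, an alternative chosen after seeing the data, the log2 difference was -0.27 for Pik3ca (limma adjusted p = 0.00762), which was then called, and -0.26 for Irs1 (limma adjusted p = 0.0499). The part of the GC lean in these differences was not tested beyond these values, since the removal takes out any group difference that follows GC content.

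**Figure D3:**
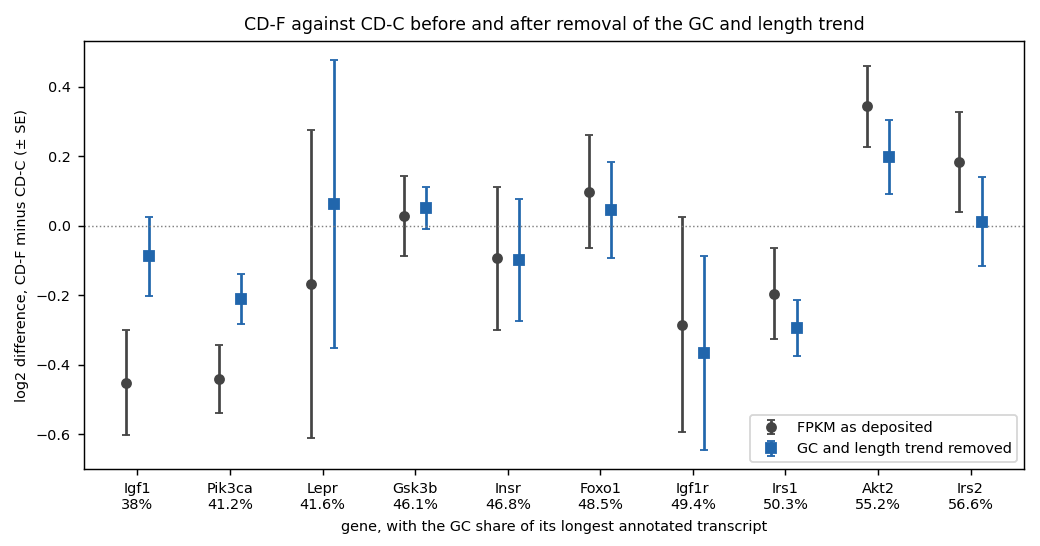
Log2 difference of CD-F minus CD-C for each gene (vertical axis), with genes ordered by transcript GC content, on the values as deposited and after the GC and length trend of each library was removed. Points are limma estimates and bars SEs. Igf1 and Pik3ca, with the lowest GC content, move to -0.09 and -0.21 from -0.45 and -0.44, and Irs1 moves to -0.29 from -0.20.

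Akt2 also moved with the summed level of genes that mark microglia, the resident immune cells of the brain, a sum dominated by Csf1r. The summed level of 6 microglia marker genes lay between 1081 and 1663 FPKM in CD-F (median 1429), against 919 to 1535 FPKM in CD-C (median 1069). In HFD-F it was 1177 to 1823 FPKM (median 1394), against 914 to 1336 FPKM in HFD-C (median 1135). The medians of the sum were thus higher in both groups coded F, and no microglia marker was at 0 in any library. Most of the sum was the receptor gene Csf1r, with 1040 ± 139 FPKM in CD-F and 777 ± 91.2 FPKM in CD-C (SD, n = 8 each). Csf1r was the 1 of 6 markers called in CD-F against CD-C, at a log2 difference of 0.42 (limma adjusted p = 0.00388), where 13.4% of all rows were called. The markers did not move together: Cx3cr1 averaged 46.6 ± 10.2 FPKM in CD-F and 139 ± 170.0 FPKM in CD-C (log2 difference -0.81, limma adjusted p = 0.361), and P2ry12 averaged 36.8 ± 9.60 FPKM in CD-F and 42.7 ± 5.99 FPKM in CD-C (-0.24, adjusted p = 0.584). Tmem119 had an estimate of 0.16 and C1qa of 0.22, neither called. Over 49 libraries Akt2 had r = 0.757 and rho = 0.762 with the log2 sum (permutation adjusted p = 6e-05 and 0.00015), with r = 0.74 without the farthest pair of libraries and 0.684 within groups. Pik3ca had r = -0.436 and rho = -0.373 (permutation adjusted p = 0.00745 and 0.0364), r = -0.397 without the farthest pair and -0.387 within groups. For Igf1, r was -0.235 (permutation adjusted p = 0.286). Akt2 also had r = 0.627 with the GC lean, and the relation of the microglia sum to the lean was not computed. The part of microglia in the Akt2 difference was not tested.

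Lepr followed the markers of the choroid plexus, the fluid-secreting tissue of the brain ventricles. The highest Lepr values were 15.5 FPKM in CD-F library 7, 11.9 FPKM in CD-C library 7 and 8.29 FPKM in HFD-F library 4. The same libraries held the highest sums of 7 choroid plexus markers, at 19413, 13728 and 10822 FPKM. The 4th-ranked library by that sum, CD-F library 8, had only 0.604 FPKM of Lepr. Across 49 libraries Lepr had r = 0.638 and rho = 0.623 with the log2 sum (permutation adjusted p = 6e-05 and 0.00015), r = 0.678 without the farthest pair and 0.639 within groups. The sums ranged between 22.2 and 10822 FPKM in HFD-F, 38.9 and 19413 in CD-F, 12.8 and 4174 in FFD-C, 22.7 and 4836 in HFD-C, 43.1 and 5095 in FD-C, and 43.5 and 13728 in CD-C. The defining marker Ttr was above 0 in every library, while Folr1, Kl, Slc4a5 and Otx2 were listed at 0 in single libraries of some groups. None of the 7 markers was called in CD-F against CD-C, where 13.4% of all rows were called. Igf1r had rho = 0.387 with the sum (permutation adjusted p = 0.031) but r = 0.166 (adjusted p = 0.402), with r = 0.196 without the farthest pair and 0.203 within groups. For Irs2 the relation was r = 0.365 and rho = 0.36 (permutation adjusted p = 0.044 and 0.0431), with r = 0.303 without the farthest pair and 0.342 within groups. The part of choroid plexus tissue in these levels was not tested.

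**Figure D4:**
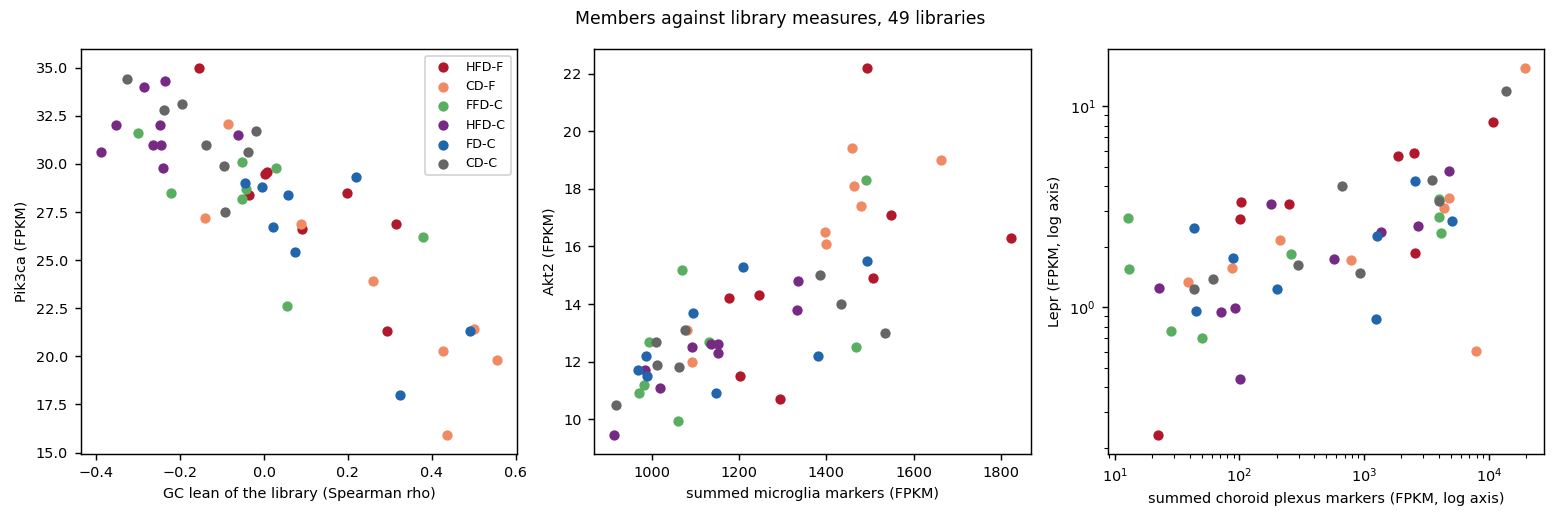
One point per library, coloured by group: Pik3ca FPKM against GC lean (left), Akt2 FPKM against the summed microglia markers (middle) and Lepr FPKM against the summed choroid plexus markers (right), with log axes where labelled. Pik3ca falls as the lean goes up (r = -0.831), Akt2 goes up with the microglia sum (r = 0.757), and the 3 highest Lepr points, 15.5, 11.9 and 8.29 FPKM, are those with the highest choroid plexus sums.

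The wider pathway was covered by 10 lists with 78 further genes, of which 67 passed the filter. In CD-F against CD-C, 6 were higher and 6 lower, to be read beside the 13.4% of all rows. None of the 8 tested genes for PI3-kinase subunits, PDK1 and the other AKT kinases was called, nor any of 6 IGF binding protein genes. The ligand gene Igf2 was tested and not called, Ins1 was listed at 0 in every library, and Ins2 and Lep, with means of 0.331 and 0.0097 FPKM, did not pass the filter.

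Among 7 tested inhibitors, the tyrosine phosphatase gene Ptpn2 was lower in CD-F (log2 difference -0.58, limma adjusted p = 0.0109), on a row that also names Gm26910, and Phlpp1, whose product dephosphorylates AKT, was higher (0.31, adjusted p = 0.037). In the leptin receptor list 1 of 7 was called, beside 13.4% of all rows. Jak2, the kinase bound to that receptor, was lower at 25.3 ± 9.30 FPKM in CD-F and 36.0 ± 2.69 FPKM in CD-C (SD, n = 8 each, log2 difference -0.58, limma adjusted p = 0.00728). Of 10 FOXO target genes, 2 were called lower and none higher: the cyclin gene Ccng2 (-0.34, adjusted p = 0.00876) and the sestrin gene Sesn1 (-0.28, adjusted p = 0.009). Lower calls were also the more common over all rows, at 8.88% against 4.54% higher, and FOXO activity was not tested. In the TSC and mTOR list, Rptor and Tsc2 were higher (0.31 and 0.26) and the S6 kinase gene Rps6kb1 was lower (-0.52), with limma adjusted p of 0.0208, 0.0175 and 0.019. Higher values were also called for Gsk3a (0.25, adjusted p = 0.0133), the glycogen synthase gene Gys1 (0.34, adjusted p = 0.00579) and the adaptor gene Gab1 (0.45, adjusted p = 0.0421).

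After the GC and length trend was removed, 3 of 67 list genes were called in CD-F against CD-C, beside 6.72% of all rows. Of the 12 genes called on the deposited values, 2 were still called, Sesn1 (-0.33, limma adjusted p = 0.0026) and Jak2 (-0.47, adjusted p = 0.0115), and the adaptor gene Grb14 was called in addition (0.42 higher, adjusted p = 0.026). In HFD-F against CD-C, Sesn1 was the 1 of 67 list genes called, at -0.35 on the deposited values (limma adjusted p = 0.00727), where 2.7% of all rows were called, and again after the removal (adjusted p = 0.00568), where 1.67% were.

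The genes most like each called member were taken by Pearson correlation of log2 values over 49 libraries among 14627 rows. For Pik3ca they were Kif5b (r = 0.933), Rb1cc1 (0.925) and Nipbl (0.921). For Igf1 they were Hdgfrp3 (0.821), Sclt1 (0.82) and Rasa2 (0.819), close together in likeness. For Akt2 they were Olfml3 (0.824), the microglia marker Csf1r (0.821) and Rps6ka1 (0.801). All 49 libraries enter each value, with the differences in GC lean described above.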

How the data were processed

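The authors deposited 1 table of FPKM values with a column for each of the 49 libraries. Per the submitters' processing notes, the tools were HISAT2, StringTie 1.3.4d and Trimmomatic 0.38, used with build GRCm38.p6 in roles that are not stated. Identifiers of 23263 rows come from an assembly. FPKM was used as deposited. Absolute depth is unknown, so that intervals cover the spread between libraries only. Since 1 library stands for 1 mouse, p-values measure the spread between mice, with any litter effect unmodelled in the main test.

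The 16029 rows averaging 0.5 FPKM or more were tested with limma 3.58.1 (R 4.3.3; lmFit, eBayes with a trend) on log2(FPKM + 0.5), so that fold changes of low genes are understated. The model held 6 groups and the XX or XY mark over all 49 libraries. Two-sided p-values were adjusted by Benjamini-Hochberg over all rows, with a threshold of 0.05. The script was tested on simulated data. Correlations used 100000 permutations. GC content came from the longest GENCODE M21 transcript of a named gene, available for 14875 tested rows, and the trend was removed by lowess with a span of 0.3. Figures and tables were made with Python 3.11.15.

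Alternatives were other pseudocounts (0.1 and 1), no filter or a filter of 5 FPKM, quantile and median-ratio scaling, removal of the GC and length trend, summed rows of a symbol, the compared groups alone, no mark term, the title prefix as a random block, means per prefix, no CD-C libraries with at least 1 FPKM of Alb, and leaving out each library. Leaving out CD-F library 8 with the trend removed was added after seeing the data. All 10 members are named, in the pathway lists up to 4 called genes per list with the smallest p, and 3 most similar genes per called member. The members and lists were chosen with earlier results of these data known. Start windows came from RefSeq. The results of 2 listed genes are not reported here.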

Additional observations from a re-analysis of the deposited data

Results flagged for a closer look

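Within each group, the highest and lowest library of every member was set against the nearest other library by Dixon's test on FPKM. Of 60 sets of a gene and a group, 9 had a library that stood apart. For independent, normally spread values the test flags about 1 in 20. The sets share libraries and FPKM can be skewed, so that rate is only a rough guide here. The high ones were both of Lepr: 15.5 FPKM in CD-F library 7, with the next at 3.48, and 11.9 FPKM in CD-C library 7, with the next at 4.27. The low ones included 3 in CD-F library 8, which read 227 FPKM for Insr (next 410), 18.6 for Irs1 (next 31.0) and 217 for Gsk3b (next 337). Gsk3b was also low in HFD-F library 8, at 257 FPKM (next 366), and in CD-C library 3, at 280.0 FPKM (next 362). Igf1r was low in FFD-C library 3, at 27.7 FPKM (next 41.5), and lowest of all in FD-C library 5, at 5.003 FPKM (next 43.7). CD-F library 8 gave the lowest value of its group for 8 of the 10 members and had the largest spread around the row medians of any library (SD 0.814 on the log2 scale), and FFD-C library 3 gave the lowest value for 7.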

How the results depend on the processing

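No direction of a called member reversed under any alternative. The number of members called in CD-F against CD-C was 3, beside 13.4% of all rows. It was 1 with the GC and length trend removed, beside 6.72% of rows. The count was 1 with no filter, 1 with means per title prefix, and 1 to 3 with 1 library left out. The number called for any difference among the 6 groups was 2, beside 12% of all rows. It was 0 with the GC and length trend removed, beside 6.26% of rows, 1 with means per title prefix, and 1 to 3 with 1 library left out. In HFD-F against CD-C the count was 1 with the trend removed, beside 1.67% of rows, and 0 otherwise, with 2.7% of rows called in the main test. For the other settings in this section the share of all rows called is not given. Their counts therefore cannot be read as results about the members. With the title prefix as a random block (correlation within prefixes 0.0356) the count in CD-F against CD-C was 2, since Akt2 had an adjusted p of 0.0534, and that block changed no other member's call in that comparison. With the compared groups alone Igf1 had an adjusted p of 0.167, and without a filter Igf1 had 0.0696 and Akt2 0.0716, over 33090 rows. Over the 13 settings other than leaving out single libraries, Pik3ca in CD-F against CD-C lay between -0.50 and -0.21 on the log2 scale and was called in 12, Igf1 between -0.66 and -0.09 and called in 9, and Akt2 between 0.20 and 0.37 and called in 8. With the trend removed and CD-F library 8 left out, chosen after seeing the data, the count in CD-F against CD-C was 2 (Pik3ca and Irs1). The causes of these changes were not tested. The depth of the libraries is unknown, which limits what can be said of Lepr, at a mean of 2.88 FPKM.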
